A study of Mus musculus with 12 samples.

Results

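The circadian clock genes described here are 10 transcripts of mouse liver, taken by name from the table of normalized read counts, out of 17714 genes in that table. They are Arntl, Clock and Npas2, the positive arm of the clock, and Per1, Per2, Per3, Nr1d1, Nr1d2, Dbp and Tef, 7 genes that the positive arm drives. The animals were 12 female mice aged 3 weeks, whose livers were taken for RNA-seq at weaning, at around 10 am. Of these, 6 were Lcorl knockout (KO), which lack the nuclear protein LCoRL throughout the body, and 6 were wild type (WT). The sources used here do not give the strain, the knockout allele, the lighting schedule or the order in which the mice were taken. Every liver has an animal number of its own in the labels.

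The clock is a feedback loop that runs in nearly every cell. ARNTL (also called BMAL1) pairs with CLOCK, or with its relative NPAS2, and binds E-box sequences to switch on the Per and Cry repressors, the nuclear receptors REV-ERB alpha and beta (Nr1d1 and Nr1d2) and the output factors DBP and TEF. PER and CRY proteins then block ARNTL and CLOCK, the REV-ERB proteins repress Arntl, Clock and Npas2 through ROR elements, and DBP and TEF act on D-boxes. In liver the transcripts of the arms are known to peak at different times of day, with Arntl and Dbp high at opposite times.

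Promoter windows from RefSeq on GRCm38.p6, which run from 250 bases before to 50 bases after a transcript start, were found for 9 of the 10 genes, 14 windows in all; Per2 had none. The stretches printed are those with an exact match to one of 4 motifs of the loop, because they show elements of the feedback near the start of 5 of these genes; the windows of Clock, Npas2, Nr1d2 and Dbp held none of the 4. Motifs were searched on both strands and the match is in capitals; positions count from the transcript start.
Per1, with the E-box CACGTG at position −166, chr11:69098699-69098938 on the plus strand: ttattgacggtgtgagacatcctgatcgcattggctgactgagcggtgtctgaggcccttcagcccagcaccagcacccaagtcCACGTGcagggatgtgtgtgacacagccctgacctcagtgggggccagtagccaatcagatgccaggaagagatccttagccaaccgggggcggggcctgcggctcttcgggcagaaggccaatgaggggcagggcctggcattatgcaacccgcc
Tef, with CACGTG at position −138, chr15:81811164-81811403 on the plus strand: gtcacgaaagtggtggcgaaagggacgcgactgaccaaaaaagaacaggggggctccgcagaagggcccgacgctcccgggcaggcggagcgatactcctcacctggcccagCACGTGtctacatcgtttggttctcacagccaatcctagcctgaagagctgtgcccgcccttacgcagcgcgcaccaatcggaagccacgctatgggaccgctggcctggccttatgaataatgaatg
Nr1d1, with the E-box variant CACGTT in reverse at position −28, chr11:98775388-98775627 on the minus strand: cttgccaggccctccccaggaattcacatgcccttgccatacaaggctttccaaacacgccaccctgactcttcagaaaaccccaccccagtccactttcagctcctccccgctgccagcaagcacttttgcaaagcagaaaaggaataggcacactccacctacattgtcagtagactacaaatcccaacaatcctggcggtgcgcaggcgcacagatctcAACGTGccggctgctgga
Per3, with the D-box TTATGTAA at positions −205 and −158, chr4:151044676-151044915 on the minus strand: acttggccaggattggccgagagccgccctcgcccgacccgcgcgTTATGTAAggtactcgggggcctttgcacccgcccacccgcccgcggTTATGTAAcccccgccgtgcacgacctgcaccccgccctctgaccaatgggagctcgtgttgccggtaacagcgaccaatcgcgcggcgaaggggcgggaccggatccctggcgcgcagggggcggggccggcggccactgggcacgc
Arntl, with the ROR element TAGGTCA at position 31 after the start, chr7:113207531-113207560 on the plus strand: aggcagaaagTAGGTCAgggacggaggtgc
A CACGTG stood in 3 of the 14 windows and in 7.15% of all 32851 promoter windows, CACGTT in 4.68%, TTATGTAA in 0.938% and TAGGTCA in 2.61%. Tef carried a CACGTG in both of its windows, the other at position −127. These matches describe the letters of the windows and were not tested for binding.

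The genotypes were compared on a log2(normalized count + 1) scale with limma, in the 13569 genes whose mean reached 10, and every adjusted p is over all of these genes. All fold changes set KO against WT on this scale, where differences of low genes come out too small. The WT libraries held 21769795 to 28655120 reads and the KO libraries 27692285 to 31296485. Lcorl itself lay between 234 and 308 normalized counts in the WT livers and between 0 and 2.83 in the KO livers. All 5 hepatocyte markers had a mean of at least 10, with a summed level of 3301000 to 3686000 normalized counts in WT and 2886000 to 3727000 in KO. The 5 adipocyte markers summed to 202 normalized counts in WT 6 and to at most 3.11 in any KO liver. Kupffer cell markers summed to 13590 to 24610 in WT and 17420 to 24800 in KO. Stellate and fibroblast markers summed to 17790 to 25200 in WT and 10990 to 21780 in KO, endothelial markers to 5233 to 8460 and 3548 to 7261, cholangiocyte markers to 1813 to 2523 and 1240 to 2240. Erythroid markers summed to 6689 to 34550 and 5935 to 19810, lymphocyte markers to 511 to 795 and 585 to 929, and the 3 of 5 pancreatic acinar markers in the table to 273 to 503 and 131 to 280. The part of these cells in the clock gene levels was not tested, and fewer cells of a type cannot be told apart from less RNA per cell.

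Among the clock genes, Per1 rose in KO livers and the other members did not pass the threshold. Of the 9 members that could be tested, 1 was called, where 4.43% of all tested genes were called in either direction, 1.75% rose and 2.68% fell. On reads recovered from the table, edgeR also called 1 of 9 members, against 4.1% of the same genes. DESeq2, which gave all 10 members an adjusted p, called 1 of 10, against 8.68% of 15243 genes. An unadjusted p under 0.05 was found in limma for 1 of 9 members and for 23.4% of all genes. The log2 fold change was above 0 for 8 of the 9 members, with a median of 0.29, against 7029 of all 13569 genes and a median of 0.00752. Without WT 1 or without WT 2 it was above 0 for 6 of 9 members, with a median of 0.15 and 0.14. The KO and WT ranges overlapped for every tested member, while 2.96% of all tested genes had ranges that did not overlap.

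**Figure D1:**
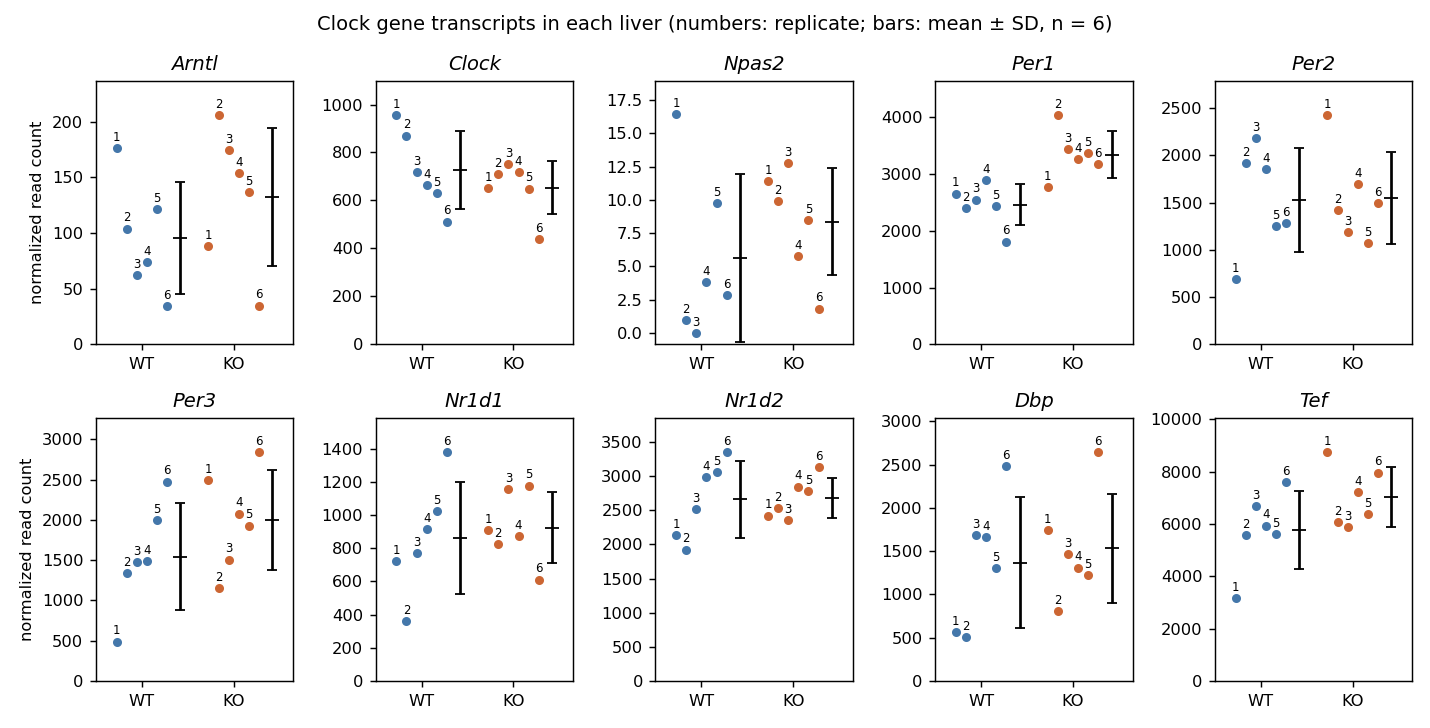
Normalized read counts (y axis, linear, one scale per gene) of the 10 clock genes in the 6 WT and 6 KO livers; points are livers with their replicate number and bars are the mean ± SD. In Per1, 5 of 6 KO livers lie above all WT livers, while in the other genes both genotypes spread over much the same range.

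Of the positive arm, Arntl and Npas2 were measured at low counts and Clock at higher ones. Arntl, which encodes the DNA-binding partner of CLOCK, lies on the plus strand of chromosome 7 (GRCm38), from 113207465 to 113314126. Its normalized counts had a lowest, median and highest value of 34.3, 88.9 and 176 in WT and of 34.7, 145 and 206 in KO. The lowest WT liver, WT 6, and the lowest KO liver, KO 6, lay side by side, and the highest values were those of KO 2 and WT 1. The genotypes overlapped almost fully, and Arntl was not called (95.5 ± 50.2 in WT and 132 ± 61.9 in KO, SD over 6 livers; a log2 difference of 0.45, 95% interval −0.51 to 1.41, limma adjusted p = 0.596).

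Clock, which encodes the other subunit of the activator, lies on the minus strand of chromosome 5, from 76209868 to 76304792. It ranged from 512 to 955 normalized counts around a median of 691 in WT, and from 439 to 753 around a median of 682 in KO. Its log2 fold change was −0.14, with an interval of −0.48 to 0.20 (limma adjusted p = 0.648). KO 6 had the lowest level of all 12 livers, and the 5 other KO livers sat between 649 and 753.

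Npas2, the CLOCK relative (chromosome 1, 39193731 to 39363236, plus strand), was close to the limit of detection. It held 84 reads in all 12 libraries together and had a mean of 7.0 normalized counts, under the filter. Its highest level was 16.5 in WT 1, and WT 3 held 0 reads, which allows up to 3. Without the filter its log2 fold change was 0.94, with an interval of −0.42 to 2.29 (limma adjusted p = 0.454).

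Per1 was the period gene that differed. It encodes a repressor of ARNTL and CLOCK whose transcription is also known to respond directly to hormones and other acute signals, and lies on the plus strand of chromosome 11, from 69095217 to 69109960. Its normalized counts had a lowest, median and highest value of 1810, 2494 and 2898 in WT and of 2776, 3319 and 4036 in KO. KO 1, at 2776, was the only KO liver inside the WT range, below WT 4 at 2898. Per1 rose 1.37-fold (2459 ± 364 in WT and 3344 ± 411 in KO, SD over 6 livers; a log2 difference of 0.45, SE 0.11, interval 0.21 to 0.69, limma adjusted p = 0.0391). Each of the 6 KO livers exceeded the WT median. The authors' deposited table gives an adjusted p of 0.00508 for it.

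The size of the Per1 rise kept its direction under each alternative, but the call was close to the threshold. Leaving out any 1 of 8 libraries ended it: WT 1 (limma adjusted p = 0.0606), WT 2 (0.0745), WT 3 (0.0710), WT 5 (0.0735), KO 2 (0.0631), KO 3 (0.0570), KO 4 (0.0803) or KO 5 (0.0604). With a block for animals of nearby number, in 4 runs, the log2 fold change was 0.40 (adjusted p = 0.139). With the log2 ratio of Dbp to Arntl in each liver as a second term, an alternative chosen after seeing the data, it was 0.44 (adjusted p = 0.0283).

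Per2 and Per3, the other period genes, did not pass. Per2 (chromosome 1, 91415982 to 91459324, minus strand) had a lowest, median and highest level of 692, 1571 and 2185 normalized counts in WT and of 1069, 1458 and 2425 in KO. Its means were nearly equal, 1532 ± 552 and 1549 ± 484 (log2 fold change 0.06, interval −0.51 to 0.63, limma adjusted p = 0.927), and the sign of the difference turned without WT 1 or KO 1. Per3 (chromosome 4, 151003652 to 151044665, minus strand) had values of 487, 1484 and 2475 in WT and of 1149, 2003 and 2841 in KO. WT 1 was the lowest of all 12 livers in Per2 and in Per3. The log2 fold change of Per3 was 0.47, with an interval of −0.26 to 1.19 (limma adjusted p = 0.440), and it was 0.16 without WT 1.

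The REV-ERB genes, which encode the repressors of the positive arm, did not pass the threshold. Nr1d1 (chromosome 11, 98767932 to 98775333, minus strand) had a lowest, median and highest level of 359.5, 842 and 1379 normalized counts in WT and of 610, 889 and 1177 in KO. The lowest liver was WT 2 and the highest WT 6, so the KO livers sat inside the WT range. Its log2 fold change was 0.18 (interval −0.40 to 0.75, limma adjusted p = 0.746), and it was −0.05 without WT 2 and −0.13 with the block of number runs. Nr1d1 shares 263 of its 3077 exon bases with Thra, the thyroid hormone receptor alpha gene, on the opposite strand, and without a stated strand setting their reads cannot be told apart there.

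Nr1d2 (chromosome 14, 18204054 to 18239127, minus strand) had values of 1923, 2747 and 3353 in WT and of 2355, 2652 and 3128 in KO. Every KO liver again lay inside the WT range. The log2 fold change was 0.03, with an interval of −0.25 to 0.31 (limma adjusted p = 0.927), the narrowest limit on a change after that of Per1.

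The output factors of the PAR bZIP family carry the rhythm to metabolic genes. Dbp (chromosome 7, 45705088 to 45710203, plus strand) had a lowest, median and highest level of 510, 1485 and 2486 normalized counts in WT and of 805, 1389 and 2646 in KO. The low livers were WT 2, WT 1 and KO 2, and the high ones were KO 6 and WT 6, so high and low levels occurred in both genotypes. Its log2 fold change was 0.29 (interval −0.55 to 1.13, limma adjusted p = 0.708). Dbp shares 539 of its 2993 exon bases with Sphk2 on the opposite strand. Tef (chromosome 15, 81802421 to 81826863, plus strand) had values of 3167, 5778 and 7609 in WT and of 5872, 6803 and 8753 in KO. All 6 KO livers lay above the WT median of Tef, but the ranges overlapped and the difference did not pass (5765 ± 1487 and 7043 ± 1149; log2 fold change 0.32, interval −0.06 to 0.71, limma adjusted p = 0.302).

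**Figure D2:**
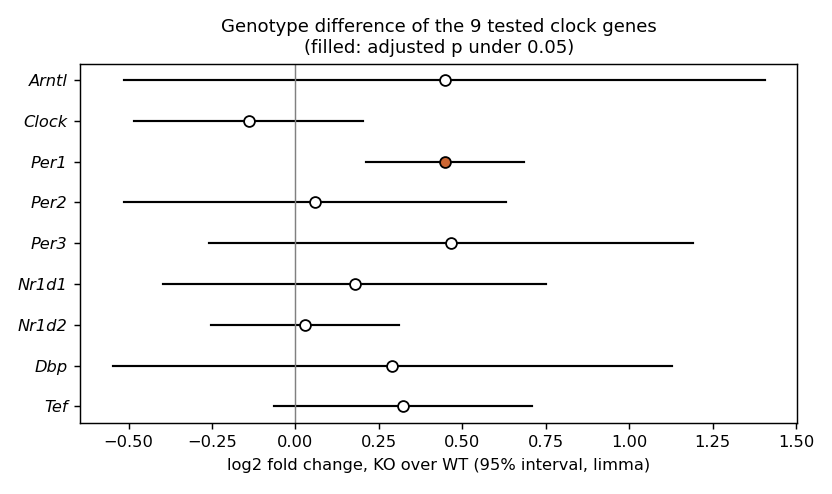
Log2 fold changes of KO over WT (x axis) for the 9 tested clock genes, with 95% intervals from limma as lines; the filled point passed the threshold. The Per1 interval lies above 0, and the intervals of the other 8 genes include 0.

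Per kilobase of exon, the members fell into an order that was much the same in both genotypes. In WT livers Tef led with 733 ± 189 normalized counts per kilobase (SD, n = 6). Nr1d2 (492 ± 104), Dbp (457 ± 251.3) and Per1 (437 ± 64.7) followed and did not differ beyond their spread. Nr1d1 (280 ± 110) and Per2 (262 ± 94.2) were next to each other, and Per3 came after them (161 ± 69.6). The positive arm was at the bottom, with Clock at 52.8 ± 11.8, Arntl at 12.7 ± 6.68 and Npas2 at 1.18 ± 1.32 per kilobase. In KO livers Per1 stood at 594 ± 73.0 per kilobase, second to Tef at 895 ± 146, with Dbp at 512 ± 209 and Nr1d2 at 495 ± 54.4. The lengths are those of all annotated exons in GENCODE M21, so they are upper bounds for genes with unused exons.

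Livers of one genotype differed more in some clock genes than in others. The coefficient of variation (SD over mean) of Dbp between WT livers was 55.0%, above that of 97.6% of tested genes, and for Arntl it was 52.6%, above 97.3%. Between KO livers these values were 40.9% and 46.8%, above 90.5% and 93.0% of tested genes. Per1 varied least of the members in WT livers, by 14.8%, close to the median of all tested genes (13.05%), and by 12.3% in KO livers. Nr1d2, Tef and Clock varied by 21.1%, 25.8% and 22.4% in WT. In KO they varied by 10.99%, 16.3% and 17.2%, near the median of tested genes there (14.72%). Per2, Per3 and Nr1d1 lay between, at 36.0%, 43.3% and 39.4% in WT and 31.3%, 31.1% and 23.2% in KO. The ratio of Dbp to Arntl, as normalized counts, ran from 3.19 in WT 1 and 3.91 in KO 2 to 72.4 in WT 6 and 76.2 in KO 6. Its log2 value averaged 3.78 ± 1.66 over the 6 WT livers and 3.63 ± 1.47 over the 6 KO livers (SD), a difference smaller than the spread between livers, so both genotypes covered the same span.

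**Figure D3:**
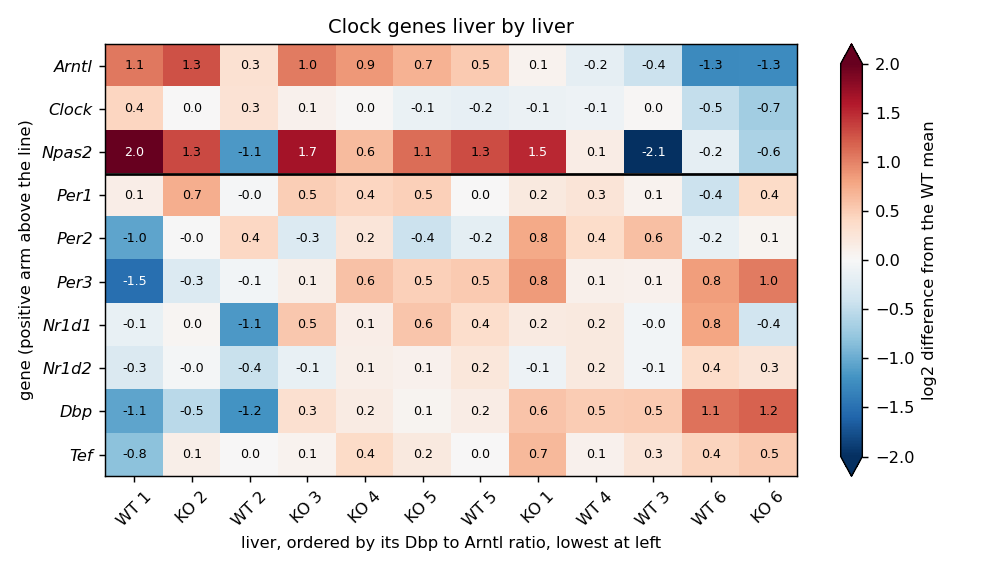
Log2 difference from the WT mean for each clock gene (rows, positive arm above the line) in each liver (columns, ordered by the ratio of Dbp to Arntl); colours saturate at 2 on either side. Arntl falls and Dbp climbs along the order, which the ratio fixes; Clock is lowest and Per3 highest in KO 6, at the right. Among the WT livers Per1 is lowest in WT 6, and among the KO livers it is highest in KO 2, at the low end.

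Animals of nearby number differed in some runs and were close in others. WT 2 and WT 3, whose animal numbers lie in one run, had Dbp at 510 and 1686 normalized counts. WT 1 and KO 1, the 2 animals of another run, had Dbp at 562 and 1746 and Per3 at 487 and 2493. KO 3 and KO 4, in one run, were close, with Dbp at 1468 and 1310 and Arntl at 174 and 154. WT 6 and KO 6, also in one run, were close in Arntl (34.3 and 34.7), in Dbp (2486 and 2646) and in Tef (7609 and 7971). These 2 livers nonetheless differed in Nr1d1, at 1379 in WT 6, the highest of all 12, and 610 in KO 6, the lowest KO liver. WT 6 also had the lowest Per1, 1810, against 3178 in KO 6. WT 6 is also the liver with the summed adipocyte markers at 202 normalized counts, whose part in these values was not tested. KO 2, the liver with the highest Per1 (4036), held the pancreatic acinar marker Reg1 at 125.7 normalized counts. Every other liver had Reg1 at 0, and its part was not tested either.

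The phase agreement of the arms was examined over 8 pairs of genes, by Pearson and Spearman correlation of log2(normalized count + 1) over the livers. Adjusted p-values are over the 8 pairs. Arntl and Dbp, an activator and its target, moved in opposite directions over 12 livers (r = −0.716, permutation p = 0.00973, adjusted p = 0.0389; rho = −0.755, p = 0.00638, adjusted p = 0.0394). Within genotypes r was −0.820 in WT (n = 6, exact permutation p = 0.0458, adjusted p = 0.156) and −0.904 in KO (n = 6, exact permutation p = 0.00833, adjusted p = 0.0556). Without WT 6 and KO 6, the 2 livers farthest from the median of Arntl, r was −0.475 (permutation p = 0.165, adjusted p = 0.439). The call over all livers rests on those 2 livers, without which the range of Arntl is also narrower, and on single other livers given in the next paragraph.

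Arntl and Clock, the partners of the activator, moved together (r = 0.743, permutation p = 0.00548, adjusted p = 0.0389; rho = 0.559, p = 0.0639, adjusted p = 0.170). The values were 0.798 in WT (exact permutation p = 0.0583, adjusted p = 0.156) and 0.952 in KO (exact permutation p = 0.0139, adjusted p = 0.0556). Without WT 6 and KO 6, r fell to 0.300 (permutation p = 0.402, adjusted p = 0.804), over the same narrower range of Arntl. Arntl and Npas2 had r = 0.655 (permutation p = 0.0210, adjusted p = 0.0560; rho = 0.727, p = 0.00984, adjusted p = 0.0394). That pair gave 0.575 in WT and 0.793 in KO (exact permutation p = 0.226 and 0.0847, adjusted p = 0.439 and 0.169), and 0.708 without WT 6 and KO 6 (permutation p = 0.0192, adjusted p = 0.0876). Its lowest values are a few reads. For both of the pairs that passed by Pearson's r, leaving out WT 1, WT 4, WT 6, KO 1 or KO 6 alone brought the adjusted p above the threshold, to between 0.0507 and 0.0943. For Arntl and Dbp so did WT 3 (0.0610), WT 5 (0.0516), KO 2 (0.0786) and KO 5 (0.0530).

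The REV-ERB gene Nr1d1 did not follow this pattern. Arntl and Nr1d1, a gene and its repressor, had r = 0.0091 over 12 livers (permutation p = 0.978, adjusted p = 0.978; rho = −0.0559, p = 0.868). Within genotypes r was −0.499 in WT and 0.696 in KO (n = 6 each, exact permutation p = 0.303 and 0.131, adjusted p = 0.439 and 0.209), and without WT 6 and KO 6 it was 0.183 (permutation p = 0.645). Nr1d1 and Dbp, both driven by E-boxes, had r = 0.528 (permutation p = 0.0760, adjusted p = 0.152; rho = 0.252, p = 0.430). In WT livers it was 0.831 and in KO livers −0.457 (n = 6 each, exact permutation p = 0.0250 and 0.351, adjusted p = 0.156 and 0.402). The difference between the genotypes was not tested, and without WT 2 and WT 6, the 2 livers farthest from the median of Nr1d1, r was −0.0800 (permutation p = 0.835). Without KO 6 alone, r was 0.761 (permutation, adjusted p = 0.0307).

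The remaining pairs did not pass. Arntl and Per2 had r = −0.361 (permutation p = 0.249, adjusted p = 0.332; rho = −0.490, p = 0.109), with −0.491 in WT and −0.296 in KO (exact permutation p = 0.329 and 0.531). Without WT 6 and KO 6 this pair had r = −0.707 (permutation p = 0.0219, adjusted p = 0.0876). Npas2 and Nr1d1 had r = 0.446 (permutation p = 0.147, adjusted p = 0.234; rho = 0.273, p = 0.388), with 0.299 in WT and 0.798 in KO (exact permutation p = 0.611 and 0.0569), and 0.0847 without WT 2 and WT 3 (permutation p = 0.815). Per1 and Per2, 2 paralogous repressors, had r = −0.0559 (permutation p = 0.862, adjusted p = 0.978; rho = −0.231, p = 0.470), with 0.0864 in WT and −0.637 in KO (exact permutation p = 0.906 and 0.158), and −0.203 without WT 6 and KO 2 (permutation p = 0.581).

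**Figure D4:**
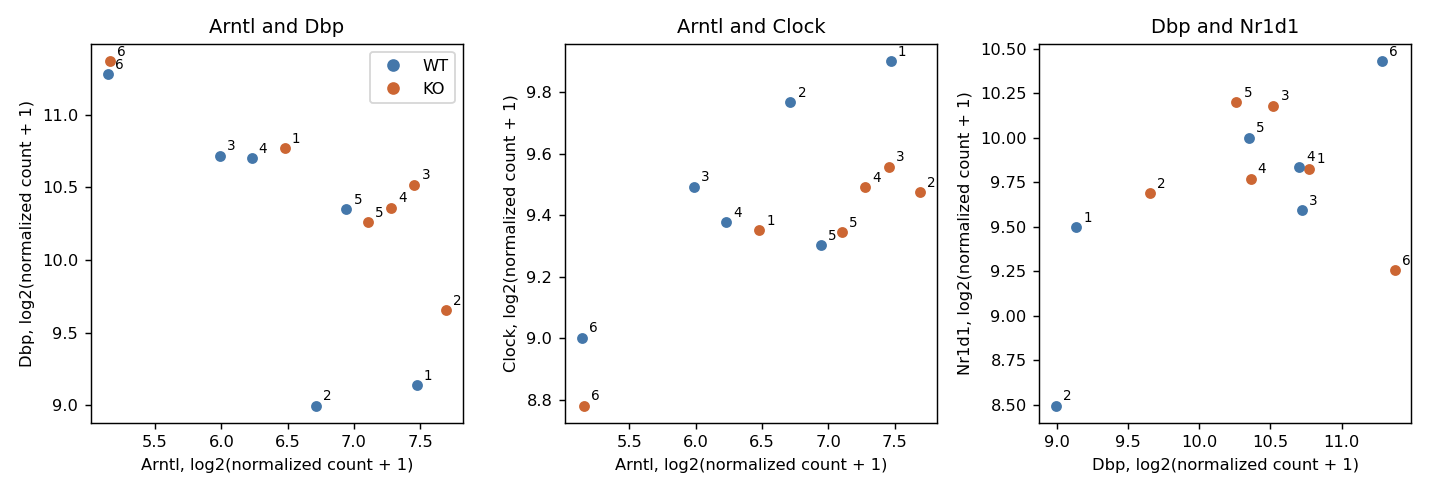
Levels of Arntl and Dbp, Arntl and Clock, and Dbp and Nr1d1 in each liver (both axes log2(normalized count + 1); numbers are replicates, blue WT and orange KO). WT 6 and KO 6 coincide at the low Arntl and high Dbp end of the left panel but lie apart in Nr1d1 in the right panel.

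Among the pairs outside this set, given here with no test, the highest correlation over 12 livers was that of Per3 and Tef (r = 0.926; 0.937 in WT and 0.859 in KO). Nr1d2 went with Dbp (0.790, with 0.907 in WT and 0.441 in KO). It went against Clock (−0.839, with −0.936 in WT and −0.748 in KO). Dbp also went against Clock (−0.858, with −0.916 in WT and −0.763 in KO). Over the 12 livers, where the genotypes differ in Per1, its r lay between −0.152 and 0.00832 to Per3, Nr1d1, Nr1d2, Dbp and Tef. Within WT and KO livers, r of Per1 was −0.547 and −0.862 to Per3, −0.507 and −0.842 to Tef, and −0.383 and −0.729 to Dbp. To Nr1d1 it was −0.38 and 0.0789, and to Nr1d2 −0.374 and −0.076, so KO livers showed little relation to these genes. In the positive arm it was 0.634 and 0.573 to Arntl, 0.6 and 0.314 to Clock, and 0.141 and 0.144 to Npas2. Members of one liver share its library and its scaling. As the mean log2 difference from the WT mean over its 3 genes, the positive arm was highest in WT 1 (1.16) and lowest in KO 6 (−0.86) and WT 3 (−0.84). The place of WT 3 rests on Npas2, which had 0 reads there. Without Npas2 the lowest livers were KO 6 (−0.97) and WT 6 (−0.87), and WT 3 was at −0.20. The driven arm, over its 7 genes, was lowest in WT 1 (−0.68) and highest in KO 1 (0.44), KO 6 (0.43) and WT 6 (0.42). In 10 of 12 livers the arms, with Npas2 included, lay on opposite sides of their medians. The KO average was 0.41 above WT for the positive arm, where the SD between WT livers was 0.75, and 0.26 above WT for the driven arm, where that SD was 0.42. Without Npas2 the difference of the positive arm was 0.15. With all 3 genes that difference was 0.65 without WT 1, 0.25 without WT 3 and 0.67 without KO 6, and that of the driven arm was 0.12 without WT 1.

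Genes outside the 10 members were grouped in lists, whose counts stand beside the shares over all tested genes. Those shares were 4.43% called in limma, 23.4% with an unadjusted p under 0.05, 4.1% called in edgeR and 8.68% in DESeq2. At such shares, 0 calls in lists this short are no result about the clock machinery. Of the 6 tested transcriptional repressors of the loop (Cry1, Cry2, Ciart, Bhlhe40, Nfil3 and Timeless), 0 passed in limma, with 0 at an unadjusted p under 0.05 and 0 in edgeR and in DESeq2; the median log2 change was 0.04. Nfil3, a repressor that competes for D-boxes, had 265 ± 108 normalized counts in WT livers and 463 ± 295 in KO livers (log2 fold change 0.68, limma adjusted p = 0.313). Ciart, a repressor of ARNTL and CLOCK, measured 546 ± 336.5 and 339 ± 61.5 (−0.50, limma adjusted p = 0.370). Of 7 tested activators and cofactors, among them Rora and the PAR bZIP gene Hlf, 0 passed in limma, 0 had an unadjusted p under 0.05, and 0 passed in edgeR and in DESeq2 (median 0.08). The log2 fold change was 0.46 for Arntl2, a paralog of Arntl, and 0.13 for Rora, the activator at ROR elements (limma adjusted p = 0.284 and 0.613).

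Of 14 kinases and ubiquitin pathway genes that act on clock proteins, 0 passed in limma, 2 had an unadjusted p under 0.05, and edgeR called 0 and DESeq2 1 (median 0.02). Those 2 were Prkaa2, a catalytic subunit of AMP kinase (1631 ± 161 in WT livers, 1313 ± 169 in KO livers; log2 fold change −0.32, limma adjusted p = 0.0708), and Gsk3b (849 ± 25.4 and 778.5 ± 40.5; −0.13, adjusted p = 0.162). All 6 KO livers were below all WT livers in Gsk3b, by a narrow margin.

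In limma, the calls in the lists of E-box and output genes and of PAR bZIP targets were all falls. Of 16 listed E-box and output genes 15 were tested and 1 fell, Tars, which encodes threonyl-tRNA synthetase (2553 ± 396.5 in WT and 1794 ± 216 in KO; 1.42-fold, limma adjusted p = 0.0252), and the median was 0.11. Klf10, a rhythmic Krüppel-like factor gene, stood at −1.22 on the log2 scale (adjusted p = 0.0700). Of 12 PAR bZIP targets, 3 fell and 0 rose in limma, 8 had an unadjusted p under 0.05, and edgeR called 2 and DESeq2 5. The median was −0.07, and −0.25 to 0.19 without single libraries. The 3 that fell were the cytochrome P450 genes Cyp2b10 (6.98-fold, adjusted p = 0.00953) and Cyp2a4 (6.25-fold, adjusted p = 0.00554) and the retinal dehydrogenase gene Aldh1a1 (2.28-fold, adjusted p = 0.0485, limma). DESeq2 also called Cyp2c50 and Gstt2, both higher in KO (DESeq2 adjusted p = 0.0247 and 0.0463 in the authors' deposited table). Their log2 fold changes were 0.46 and 0.62 (limma adjusted p = 0.0821 and 0.121). Cyp2a4 is a near copy of Cyp2a5, so reads can be divided between it and that gene, whose own log2 fold change was 0.49 (adjusted p = 0.450). Over the livers, with genotype means removed, the correlation with Dbp was 0.0148 for Cyp2b10, 0.242 for Cyp2a4 and 0.557 for Aldh1a1.

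Of 12 tested REV-ERB targets, which include Arntl and Clock, 1 rose and 1 fell (median −0.15). Lpl, which encodes lipoprotein lipase, rose 1.63-fold (10990 ± 2259 and 17770 ± 2901; adjusted p = 0.0184), and E2f8, a cell cycle repressor gene, fell 2.80-fold (141 ± 45.03 and 55.0 ± 28.5; adjusted p = 0.0391, limma). Of 9 rhythmic temperature and heat shock genes, 1 rose, the cold-inducible Rbm3 (825 ± 116 and 1164 ± 69.9; 1.42-fold, limma adjusted p = 0.00914). All 6 KO livers were above all WT livers in Rbm3. The log2 fold change of the related Cirbp was 0.64 (adjusted p = 0.0863), and the median of the list was −0.28, with 6 of 9 below 0; the heat shock genes Hspa1a and Hspa1b in it are near copies.

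Signals known to act on Per1 were listed beside it. Of 12 glucocorticoid response genes, 0 rose and 1 fell, Dusp1, a phosphatase gene (2341 ± 708 and 1137 ± 652; 2.20-fold, limma adjusted p = 0.0474), and 9 of 12 were below 0 (median −0.50). For Sgk1, a kinase gene of that list, the log2 fold change was 0.57 (adjusted p = 0.111). Of 10 immediate early genes, 0 passed in limma, 3 had an unadjusted p under 0.05, edgeR called 0 and DESeq2 2, and 8 of 10 were above 0 (median 0.44). Btg2 stood at 1.002 on the log2 scale and Junb at 0.85 (limma adjusted p = 0.108 and 0.119). Of 12 feeding and fasting genes, 0 passed in limma, 4 had an unadjusted p under 0.05, edgeR called 0 and DESeq2 2 (median −0.16). Cpt1a, which imports fatty acids into mitochondria, measured 0.45 on the log2 scale (adjusted p = 0.0503) and Txnip, a glucose-responsive gene, −0.52 (adjusted p = 0.0640). Their part in the Per1 difference was not tested.

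**Figure D5:**
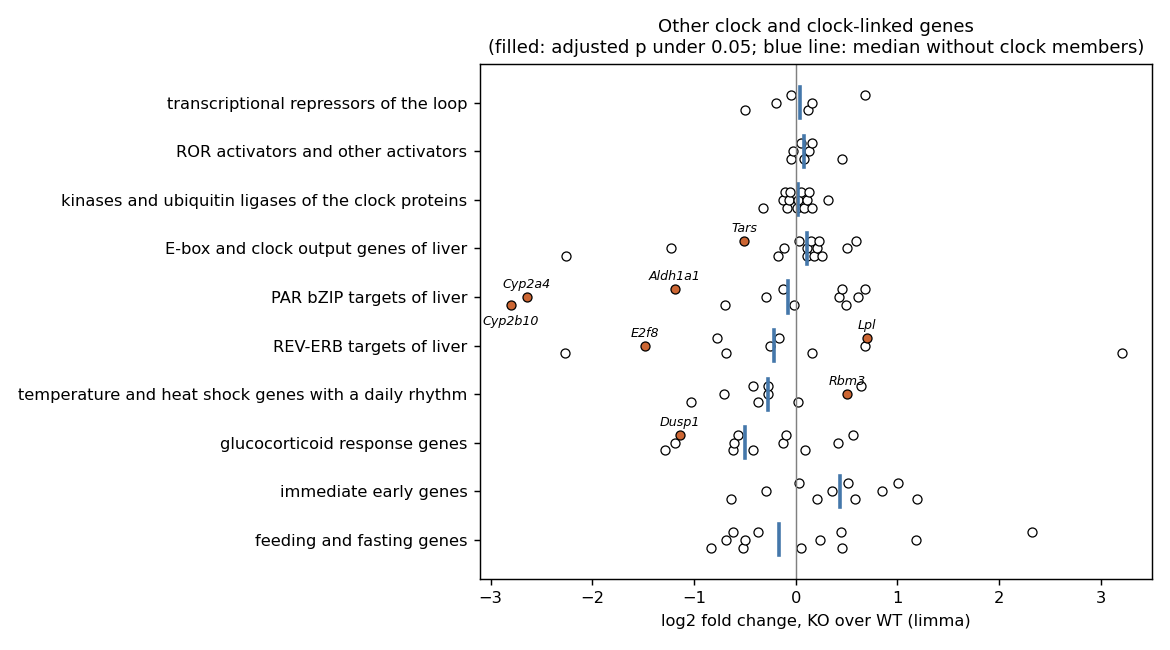
Log2 fold change of KO over WT (x axis) for the tested genes of 10 clock-linked lists, without the 10 clock members; filled points passed the threshold in limma and blue lines are the medians of the points shown. Most points lie within 1 of 0, and the 8 filled points are Tars, Cyp2a4, Cyp2b10, Aldh1a1, Lpl, E2f8, Rbm3 and Dusp1.

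Over the lists together, 8 of 102 tested genes that are not members passed, 2 higher and 6 lower. Among all tested genes 4.43% passed, 1.75% higher and 2.68% lower. These shares were not compared by a test, and the lists were chosen with earlier results known. The calls of Tars, Aldh1a1, E2f8 and Dusp1 depended on single libraries. Tars lost its call without WT 1, WT 2, WT 5, KO 1 or KO 4 (adjusted p up to 0.0598), and E2f8 without WT 1 to WT 5, KO 1, KO 2 or KO 4 (up to 0.0843). Aldh1a1 lost it without any WT library or without KO 1, KO 3 or KO 4 (up to 0.0998), and Dusp1 without WT 1 to WT 5, KO 1 to KO 4 or KO 6 (up to 0.106). The call of Aldh1a1 also ended with edgeR (adjusted p = 0.0532), robust moderation (0.0579), equal totals (0.0550), upper quartiles (0.0516) and no filter (0.0535). That of Dusp1 ended with edgeR (0.0743), robust moderation (0.0578) and no filter (0.0516). With the block of number runs, Rbm3 alone of the 8 passed.

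The transcripts whose pattern over the 12 livers was most like a clock gene, with genotype means removed, were searched among 11089 genes with a mean of at least 50. Correlations are given with no test, and the extremes of so many genes are high by selection. For Arntl the highest were Ap2a2, a clathrin adaptor subunit gene (r = 0.925), Skil, a corepressor gene (0.902), the cell cycle inhibitor gene Cdkn1a (0.899), Mpzl1 (0.886) and the 14-3-3 gene Ywhaq (0.881). Among the lowest were Anxa7 (−0.952) and Fam76a (−0.934). Clock came close to these, at 0.866, and Dbp was at −0.817.

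For Dbp the highest were Bivm (0.917), Pdcd2 (0.908), Alg5 (0.884), Txndc5 (0.883) and the kinase gene Eef2k (0.882), and the lowest were Cdkn1a (−0.887), Dpy19l1 (−0.882) and Megf9 (−0.875). Cdkn1a thus stood at opposite ends for Arntl and Dbp. Among the members, Clock was at −0.852 to Dbp, Nr1d2 at 0.795 and Per3 at 0.771. For Nr1d1 the highest were Ppil3 (0.861), Mrfap1 (0.819), the mitochondrial ribosomal gene Mrpl24 (0.814), Zfp422 (0.811) and Impdh2 (0.808). Without WT 2, Mrfap1 was at 0.53 and Impdh2 at 0.55. Over omissions of 1 library, Mrpl24 fell to as low as 0.618 and Zfp422 to 0.642, and Ppil3 to 0.792. At the other end were the histone methyltransferase gene Dot1l (−0.920), Stx2 (−0.876) and Osbpl11 (−0.868). Its closest member was Nr1d2, at 0.603, but r of this pair was 0.925 in WT livers and −0.611 in KO livers. That difference was not tested.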

How the data were processed

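Livers of 6 KO and 6 WT mice were compared, grouped by the genotype in the labels. The submitters' processing notes name the build mm10 and the tools STAR, featureCounts, FastQC and DESeq2. Their versions, the annotation, the strand setting and any filter were not in the sources at hand. The deposited signal is normalized read counts, which the authors made by dividing gene counts by 1 factor per library. The deposited comparison of the authors holds log2 fold changes, p-values and adjusted p-values for each gene. In every library all values (100%) are whole steps of 1 smallest value, within 0.001 reads, so the reads could be recovered; in KO 2 a read was worth 0.990 normalized counts. DESeq2 run on these reads differed from the deposited p-values by at most 2.05e-06. Depth was 21769795 to 31296485 reads per library, and the limit at 0 reads covers counting error only.

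The test was limma 3.58.1 (R 4.3.3, trend on) on log2(normalized count + 1), with genotype alone in the model and a minimum mean of 10. It was two-sided, with Benjamini-Hochberg adjustment and a threshold of 0.05. Correlations used 100000 permutations over 12 or 10 livers and all 720 pairings within a genotype. Members and lists were chosen with earlier results of these data known. Named genes are the members, up to 4 genes past the threshold per list (the 2 with the smallest p where fewer than 2 passed), and the 5 highest and 3 lowest correlates of Arntl, Nr1d1 and Dbp; 1 low correlate of Arntl is not reported here. Cyp2a5, Hspa1a and Hspa1b are named as near copies, and Cyp2c50 and Gstt2 as genes that DESeq2 called and limma did not. Reg1 is named as a marker of pancreatic acinar cells. As alternatives the pseudocount was set to 0.5 or 10 and the minimum mean to 50 or dropped. Libraries were also scaled to equal totals, to upper quartiles or by TMM. Robust moderation, library weights, edgeR 4.0.16, DESeq2 1.42.0, a block for runs of animal numbers (a gap of 10 starts a new run) and omitted libraries were tried as well. The procedure was tested on simulated counts. Positions and exon lengths are from GENCODE M21 on GRCm38.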

Additional observations from a re-analysis of the deposited data

Results flagged for a closer look

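In 4 of 62 groups of 6 livers, 1 liver stood far from the others of its genotype by Dixon's ratio; chance alone does so in about 1 in 20 groups. Clock measured 439 normalized counts in KO 6, against 649 to 753 in the other KO livers. Gsk3b measured 702 in KO 1, against 771 to 811 in the others. Cyp2a4 measured 836.5 in KO 6, against 143 to 384 in the other KO livers, and Dusp1 measured 2411 in KO 5, against 600 to 1110.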

How the results depend on the processing

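Over all genes, 601 were called, and 1323 with DESeq2, 158 with the block of number runs, 917 without WT 6 and KO 2, and 224 to 933 without 1 library. Of the members 1 was called, 0 with the block, 0 without WT 1, WT 6 and KO 6 (chosen after seeing the data) and 0 to 1 without 1 library. Of the list genes 8 were called, 17 with DESeq2, 1 with the block, 13 without WT 6 and KO 2, and 4 to 14 without 1 library. Of the 8 pairs 2 passed, 0 without WT 6 and KO 2, 0 without WT 1, WT 6 and KO 6, 0 without the 2 farthest livers, 0 to 3 without 1 library, and 4 with genotype and number run means removed, where the permutations do not count the removed terms. Some signs turned. The log2 fold change of Per2 was −0.0593 with library weights, −0.24 without WT 1, WT 6 and KO 6, and −0.15 to 0.18 without 1 library. That of Nr1d1 was −0.13 with the block and −0.0521 to 0.335 without 1 library, that of Nr1d2 −0.0850 with the block and −0.0590 to 0.101 without 1 library, and that of Rora −0.000718 with the block. The r of Arntl and Nr1d1 was −0.0118 with equal totals, −0.0423 with genotype means removed and −0.186 to 0.325 without 1 library, that of Per1 and Per2 −0.183 to 0.0176 without 1 library, and that of Nr1d1 and Dbp −0.0800 without WT 2 and WT 6. The causes were not tested. No paired analysis was possible because the labels give the groups no shared replicate numbers; the runs of animal numbers are a block drawn from gaps between the numbers, not pairs. Low counts limit Npas2, and 6 livers per genotype limit every correlation within a genotype.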

Other observations

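Rgs16 and Elovl3, from the lists, varied between KO livers over a wider fold range than the tested clock genes; they were singled out after their values were seen. Rgs16, a regulator of G protein signalling with a daily rhythm in liver, ran from 2983 to 5669 normalized counts in WT and from 169 to 6272 in KO, with 4 KO livers below and 1 above all WT livers (log2 fold change −2.26, limma adjusted p = 0.131). Elovl3, a fatty acid elongase gene, ran from 8.92 to 47.0 in WT and from 0 to 25.4 in KO (−2.27, limma adjusted p = 0.0879). With genotype means removed, the correlation with Dbp over the 12 livers was 0.0308 for Rgs16 and 0.0605 for Elovl3.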
